A study of Mus musculus with 15 samples.

Results

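The genes described here are 34 mitosis and kinetochore genes, listed by name, that act in mouse cells between the entry into mitosis and the separation of the daughter cells. A gene was measured by the probe set whose only gene symbol in the platform annotation is its own, or by the brightest such probe set over all 15 arrays where it had several. By this rule 33 of the 34 genes were measured, out of 19938 genes with a probe set of their own, and Ccnb1 was not analysed here because no probe set carried its symbol alone. Cks2 had 3 probe sets and Top2a had 2, and each of the others had 1.

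The study profiled mouse kidney on 15 Affymetrix mouse gene arrays in 4 groups. The 4 metanephric mesenchyme (MM) arrays each hold 1 cell of the embryonic tissue that gives rise to nephrons, taken at embryonic day 11.5 from Tg(Crym-EGFP)GF82Gsat mice of unknown sex and unspecified strain. Those cells were picked by eye for fluorescence, with glass needles, from dissected and triturated tissue. The 5 juxtaglomerular (JG) arrays each hold 1 fluorescent cell from beside the glomeruli of adult male Ren1c-YFP mice, freed with collagenase A and trypsin, and 1 protocol text names the reporter Ren1d GFP instead. The reporter follows the renin promoter, so these are cells with that promoter active and not a sample of all adult kidney cells. The 3 diluted cortex libraries hold a lysate of mixed cell types from the renal cortex of adult male Ren1c-YFP mice, diluted and amplified with the single cell protocol, with 32 rounds of amplification as for both kinds of cell. The 3 standard cortex libraries hold the same kind of tissue labelled with a NuGEN kit in 1 round. All groups thus came from mice with a reporter transgene, the labels name no drug treatment, samples were not pooled, and no label says which cells or libraries came from separate animals. Each cell is called by its label's number (MM cells 14, 15, 16 and 19; JG cells 4 to 8), and each cortex library by its letter (A, B or C).

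Mitosis begins when Cdk1, bound to a cyclin, is activated, and it is carried through by the Polo and Aurora kinases. Kinetochores, built on centromeric chromatin, attach each chromosome to spindle microtubules, and the spindle checkpoint holds the anaphase promoting complex inactive until all are attached. The complex, with Cdc20 as its activator and Ube2c as its ubiquitin-conjugating enzyme, then marks cyclins and securin for destruction, and cytokinesis follows. Most of these transcripts accumulate late in the cell cycle, so cells in G1 phase, or cells that have left the cycle, are known to hold few of them. In the embryonic kidney the mesenchyme around the ureteric bud is known to proliferate, while most cells of the adult cortex rarely divide.

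All values are log2 signals. A gene was called above background on an array where its signal passed the 99th percentile of 1205 olfactory and vomeronasal receptor probe sets on the same array, a class not known to be needed by kidney cells in number. This level lay between 7.13 and 7.56 on the MM arrays, 7.55 and 7.93 on the JG arrays, 6.18 and 6.30 in diluted cortex and 6.30 and 6.52 in standard cortex. Array medians lay between 5.73 and 6.28 on all arrays. Cap mesenchyme markers passed background for 2 to 5 of 11 genes in MM cells and 0 to 6 of 11 in JG cells, so the list did not set the MM cells apart. Six2, which defines cap mesenchyme, passed in cells 14 and 16 and not in 15 and 19, with a signal of 10.13 in cell 16 and of 6.69 to 7.53 elsewhere in the group. Crym, the gene of the MM reporter, was 7.27, 7.50, 8.61 and 6.90 in MM cells 14, 15, 16 and 19, against 6.29 to 7.77 in JG cells. Renin cell markers passed background for 0 to 1 of 5 genes in MM cells, with a summed linear signal of 421 to 574, against 1 to 3 of 5 genes and 4538 to 10914 across the JG cells. Proximal tubule markers passed background for 9 of 9 genes in all 6 cortex libraries. They also passed for 2, 1, 0 and 1 of 9 genes in MM cells 14, 15, 16 and 19, and for 0, 2, 0, 0 and 2 in JG cells 4 to 8. The summed linear signal of this list was 12217 in JG cell 5, above the 5070 of its renin cell markers. It was 823 to 1005 in the remaining JG cells and 847 to 3620 in MM cells, highest in cell 19. No marker of macrophages and leukocytes (0 of 8) or of erythroid cells (0 of 4) passed background in any of the 9 cells, whereas 4 of 8 and 2 of 4 did in each diluted cortex library. Standard cortex libraries A, B and C had 1, 2 and 3 of the 8 above background, and 0 of the 4 erythroid markers in each.

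Many promoters of late cell cycle genes are known to carry a CHR element, with the core TTTGAA, close to the gene start, and CCAAT boxes upstream of it. Promoter windows from RefSeq (GRCm38.p6, 250 bases before to 50 after the gene start) were used for 29 of the 34 members. No window was used for Ccna2, Aurkb, Incenp, Tpx2 and Kif20a. The windows below belong to the 4 of these 29 members that had the highest signal in an MM cell. They are printed 5′ to 3′ on the gene's strand. Every CHR match (TTTGAA or its complement TTCAAA) and every CCAAT match (CCAAT or its complement ATTGG) is in capitals. The window of Top2a, a member above background in no MM cell, was added after values were seen. Cenpa lies at chr5:30666636-30666935 (plus strand), Ube2c at chr2:164769679-164769978 (plus), Cenph at chr13:100775850-100776149 (minus), Cdca8 at chr4:124936868-124937167 (minus) and Top2a at chr11:99024140-99024439 (minus).
Cenpa: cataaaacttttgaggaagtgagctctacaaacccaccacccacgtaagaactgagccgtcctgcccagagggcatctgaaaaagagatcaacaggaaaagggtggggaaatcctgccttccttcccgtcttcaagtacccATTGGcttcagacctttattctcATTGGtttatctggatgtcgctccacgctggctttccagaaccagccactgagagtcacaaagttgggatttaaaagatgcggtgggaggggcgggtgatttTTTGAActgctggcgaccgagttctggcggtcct
Ube2c: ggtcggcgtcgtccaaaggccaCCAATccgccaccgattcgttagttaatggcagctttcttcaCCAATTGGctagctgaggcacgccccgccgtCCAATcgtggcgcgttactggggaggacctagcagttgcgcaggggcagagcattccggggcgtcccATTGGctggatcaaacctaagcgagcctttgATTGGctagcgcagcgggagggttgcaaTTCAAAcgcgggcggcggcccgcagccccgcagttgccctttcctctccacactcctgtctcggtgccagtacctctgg
Cenph: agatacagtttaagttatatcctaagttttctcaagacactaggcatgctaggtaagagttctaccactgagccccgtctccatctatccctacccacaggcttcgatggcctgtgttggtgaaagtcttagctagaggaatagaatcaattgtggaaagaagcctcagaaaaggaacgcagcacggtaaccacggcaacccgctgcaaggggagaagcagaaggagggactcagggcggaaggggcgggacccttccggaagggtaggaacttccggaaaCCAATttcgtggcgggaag
Cdca8: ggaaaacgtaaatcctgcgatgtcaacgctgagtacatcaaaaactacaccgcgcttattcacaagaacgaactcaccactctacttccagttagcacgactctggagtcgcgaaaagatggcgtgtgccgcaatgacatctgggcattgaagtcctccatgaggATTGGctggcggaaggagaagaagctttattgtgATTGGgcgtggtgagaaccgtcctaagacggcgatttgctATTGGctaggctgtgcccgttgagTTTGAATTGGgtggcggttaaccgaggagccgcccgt
Top2a: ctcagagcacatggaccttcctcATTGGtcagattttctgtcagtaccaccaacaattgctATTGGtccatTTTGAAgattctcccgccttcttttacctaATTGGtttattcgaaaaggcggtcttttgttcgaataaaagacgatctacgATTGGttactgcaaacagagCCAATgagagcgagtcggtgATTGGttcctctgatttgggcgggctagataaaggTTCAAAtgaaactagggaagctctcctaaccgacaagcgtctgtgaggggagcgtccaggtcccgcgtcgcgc

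Counted in bases from the gene start, the CHR letters begin at 16 in Cenpa, at 13 in Cdca8, at −29 in Ube2c, and at −179 and −23 in Top2a. Cenph holds none in this window and has a single CCAAT match, at 31. Over all members with a window, 20 of 29 (69.0%) hold a CHR match, compared with 20.2% of 27025 genes with such windows. A gene with several windows was counted if any of them matched. A CCAAT match lies in 22 of 29 (75.9%), compared with 41.1% of all these genes, and both motifs occur in 17 of 29 (58.6%), compared with 7.97%. Of the 20 members with a CHR match, 18 have one whose first base lies within 50 bases of the gene start. The members without a CHR match are Birc5, Bub1, Ccnb1, Cenpe, Cenph, Cks2, Melk, Nuf2 and Nusap1. A CHR match is held by 8 of 12 members that passed background in some MM cell and by 12 of 16 that passed in none. These counts are small, levels under background are not resolved, and the difference was not tested. Both motifs were searched on both strands, the ATTGG and CCAAT matches can overlap each other or a CHR match, and a match is a stretch of letters and not a shown binding site.

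In MM cells, 13 of the 33 members passed background in at least 1 cell. The remaining 20 passed in none, where 69.3% of all genes passed in none. The cells differed from each other. Cell 14 had 11 members above background (33.3%), where 20.6% of all genes passed. Cell 19 had 6 (18.2%), with 21.1% of all genes. Cell 16 had 3 (9.09%), with 10.9% of all genes, and cell 15 had 2 (6.06%), with 15.8%. At this background the share of members was above that of all genes in cell 14 and below it in the other three, and the differences were not tested. The order in cell 19 turned with a stricter background: at the highest receptor signal, 9, 2, 1 and 5 members passed in cells 14, 15, 16 and 19 (27.3%, 6.06%, 3.03% and 15.2%), where 10.2%, 7.16%, 3.19% and 10.4% of all genes did. At the 95th percentile of the receptors, 15, 6, 7 and 10 members passed (45.5%, 18.2%, 21.2% and 30.3%), where 41.8%, 35.7%, 29.9% and 38.6% of all genes did. A distance of at least 2 log2 units above background was reached by 9, 2, 1 and 5 members in cells 14, 15, 16 and 19, where 8.91%, 5.83%, 2.22% and 8.79% of all genes reached it.

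The JG cells had 2, 1, 1, 1 and 2 members above background in cells 4, 5, 6, 7 and 8, where 9.06%, 6.78%, 9.98%, 10.7% and 14.2% of all genes passed. Diluted cortex had 12, 11 and 12 members above background in libraries A, B and C, where 50.5%, 48.3% and 48.4% of all genes passed. Standard cortex had 3, 7 and 6 in libraries A, B and C, where 43.7%, 48.2% and 47.8% of all genes passed. These counts are small and their differences from genes at large were not tested. At the highest receptor signal, 3.03%, 0%, 3.03%, 3.03% and 0% of members passed in JG cells 4 to 8. The shares of all genes in these cells were 2.34%, 1.54%, 2.78%, 4.59% and 2.33%. In each of the 6 cortex libraries 3.03% of members passed at that level, where 17.6% to 29.3% of all genes did. In the cortex, fewer dividing cells and less of the RNA per cell cannot be told apart.

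**Figure D1:**
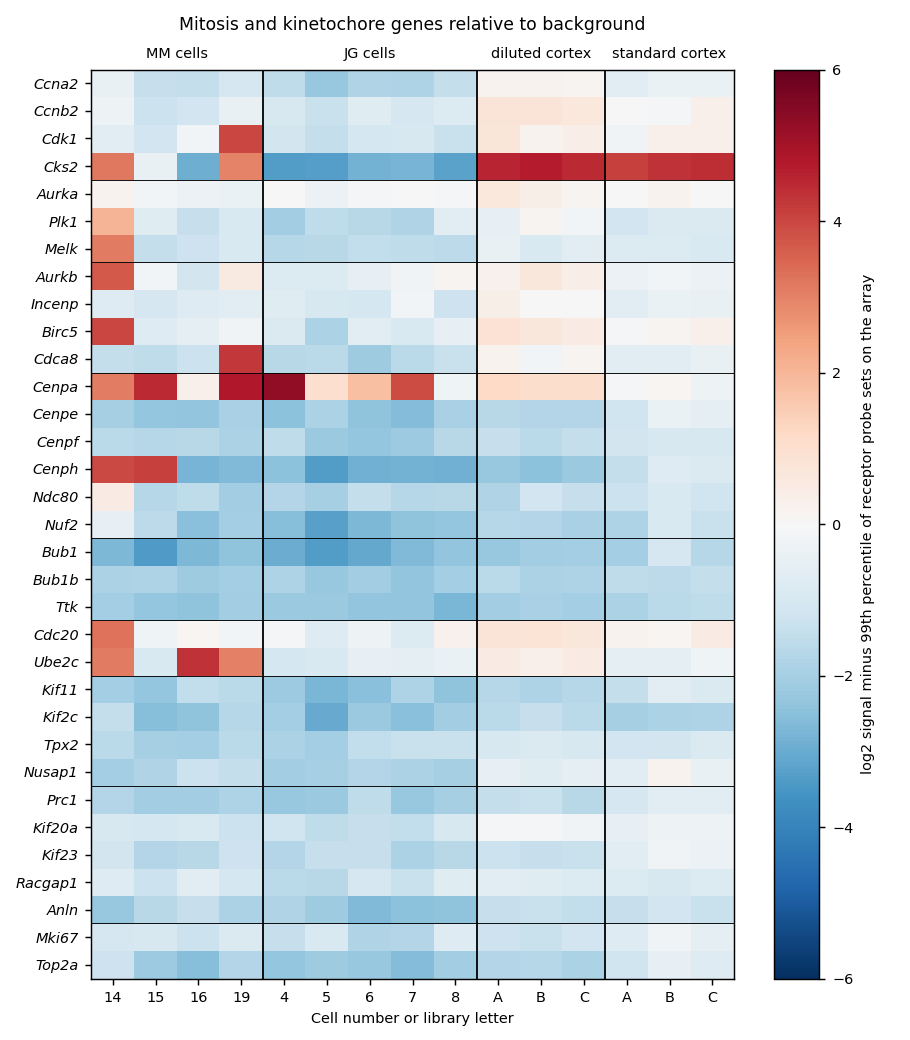
Log2 signal of the 33 measured members on each of the 15 arrays, minus the 99th percentile of receptor probe sets on that array; rows are grouped by role and columns by sample group, with red above and blue below background. Cells 14 and 19 of the MM group hold most of the red squares among the cells, Cenpa is red in all 4 MM cells and 4 of 5 JG cells, and Cks2 is red in all 6 cortex libraries.

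The cyclin and kinase core of mitosis was seen in pieces. Cdk1, the kinase that starts mitosis, was 6.49, 6.26, 7.39 and 11.15 in MM cells 14, 15, 16 and 19, against 6.62, 6.49, 6.66, 6.72 and 6.21 in JG cells. Only cell 19 held it above background, and cell 16 lay just under its level of 7.56. Cks2, a small protein that binds Cdk1 and its substrates, was 10.31, 6.93, 4.64 and 10.12 in the MM cells, against 4.37, 4.61, 4.88, 4.89 and 4.33 in the JG cells. It was thus high in cells 14 and 19 and dark in cell 16, which lay inside the JG range. Both other probe sets of Cks2 put the same cells high, at 10.08 and 9.59 in cell 14 and 10.12 and 9.92 in cell 19. Cyclin A2 (Ccna2) and cyclin B2 (Ccnb2), the partners of Cdk1, passed background in no MM cell, with MM ranges of 5.99 to 6.69 and 6.10 to 6.82.

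Of the kinases Melk, Plk1 and Aurka, none passed background in an MM cell other than 14. Melk, a kinase found in dividing progenitors, was 10.25, 5.96, 6.30 and 6.24 in MM cells 14, 15, 16 and 19, against 6.0, 6.29, 6.24, 6.17 and 5.97 in JG cells. Plk1, the Polo kinase that acts from centrosome maturation to cytokinesis, was 9.18, 6.66, 6.17 and 6.21 in the MM cells, against 5.63, 6.40, 6.09, 5.87 and 6.93 in the JG cells. For both genes cell 14 stood alone and the remaining MM cells lay close to or among the JG cells. Aurka, the Aurora kinase of the spindle poles, was 7.37, 7.23, 7.19 and 6.73 in the MM cells, against 7.75, 7.59, 7.69, 7.67 and 7.48 in the JG cells. In all 9 cells its value lay within 0.5 units of background, cell 14 being 0.22 above it and JG cell 4 being 0.02 above it, so its order between groups was read at the background.

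The chromosomal passenger complex corrects wrong attachments at centromeres and later acts at the midzone. Its kinase Aurkb was 10.84, 7.26, 6.47 and 7.69 in MM cells 14, 15, 16 and 19, against 6.91, 7.11, 7.26, 7.47 and 7.70 in JG cells. Birc5 (survivin) was 11.16, 6.64, 6.99 and 6.91 in the MM cells, against 6.84, 6.02, 7.06, 6.78 and 7.04 in the JG cells. Cdca8 (borealin), which binds survivin, was 5.72, 5.90, 6.26 and 11.39 in the MM cells, against 6.08, 6.33, 5.62, 6.09 and 6.24 in the JG cells. The high cell was thus 14 for Aurkb and Birc5 and 19 for Cdca8, and no cell held all 4 subunits. Incenp, the scaffold that joins them, passed background in 0 of 4 MM cells and 0 of 5 JG cells, with MM values of 6.37 to 6.79.

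Kinetochore genes held both the most widespread and some of the dimmest signals. Cenpa, the histone H3 variant that marks centromeres, was 10.20, 11.89, 7.88 and 11.93 in MM cells 14, 15, 16 and 19, against 13.05, 8.94, 9.56, 11.63 and 7.32 in JG cells. It was the only member above background in all 4 MM cells, it passed in 4 of 5 JG cells, and the groups overlapped throughout. Cenph, a subunit of the protein network that sits on Cenpa chromatin, was 11.11, 11.50, 4.77 and 4.48 in the MM cells, against 5.26, 4.60, 4.86, 4.86 and 4.67 in the JG cells. Cells 14 and 15 were high, and cell 16 lay inside and cell 19 just below the JG range. Ndc80, whose complex binds microtubules, was 7.65, 5.68, 6.02 and 5.03 in the MM cells, against 5.97, 5.95, 6.30, 5.98 and 5.91 in the JG cells. Its partner Nuf2 was 6.67 in cell 14 and 5.05 to 5.82 in cells 15, 16 and 19, below background in all. Cenpe, a kinetochore motor, and Cenpf passed background on none of the 15 arrays.

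The spindle checkpoint genes Bub1, Bub1b and Ttk passed background on 0 of 15 arrays, with MM values of 4.01 to 4.88, 5.11 to 5.56 and 5.04 to 5.14. Their target differed. Cdc20, the activator that the checkpoint holds back, was 10.40, 7.13, 7.65 and 6.95 in MM cells 14, 15, 16 and 19, against 7.62, 7.15, 7.41, 6.86 and 7.83 in JG cells. Cell 14 was high, and cell 16 and JG cell 8 passed background by 0.09 and 0.27. Ube2c, the conjugating enzyme of the anaphase promoting complex, was 10.27, 6.50, 11.90 and 10.16 in the MM cells, against 6.66, 7.01, 7.23, 7.14 and 7.18 in the JG cells. MM cells 14, 16 and 19 were above every JG cell, and cell 15 was below every JG cell.

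The members that act in the spindle and in cytokinesis, given next, passed background in no cell. The spindle motor Kif11, the microtubule depolymerase Kif2c, and the spindle proteins Tpx2 and Nusap1 lay between 4.86 and 6.26 in MM cells. Prc1, Kif20a, Kif23, Racgap1 and Anln, which build the midzone and the cleavage furrow, lay between 4.89 and 6.89. Mki67, the antigen used to stain cycling cells, was 6.16, 6.46, 6.25 and 6.25 in MM cells 14, 15, 16 and 19, against 6.33, 7.02, 5.91, 5.93 and 6.77 in JG cells. Top2a, which untangles chromosomes in mitosis, was 5.89, 5.23, 5.02 and 5.37 in the MM cells, against 5.43, 5.79, 5.45, 5.09 and 5.47 in the JG cells. Both were below background on all 15 arrays, adult cortex included. An array cannot separate a transcript that is absent from one below its background, so these genes are given as not detectable here.

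By pattern, 5 members passed background in cell 14 alone (Aurka, Plk1, Melk, Birc5 and Ndc80) and 2 in cell 19 alone (Cdk1 and Cdca8). Cells 14 and 19 shared Cks2 and Aurkb, cells 14 and 15 shared Cenph, and cells 14 and 16 shared Cdc20. Ube2c passed in 3 cells and Cenpa in 4. In all, 7 of 33 members passed in exactly 1 MM cell, compared with 11.7% of all genes. In exactly 2 cells 4 members passed, compared with 6.88% of all genes. A further 2 passed in 3 or 4 cells, where 5.56% of all genes passed in 3 and 6.57% in 4.

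**Figure D2:**
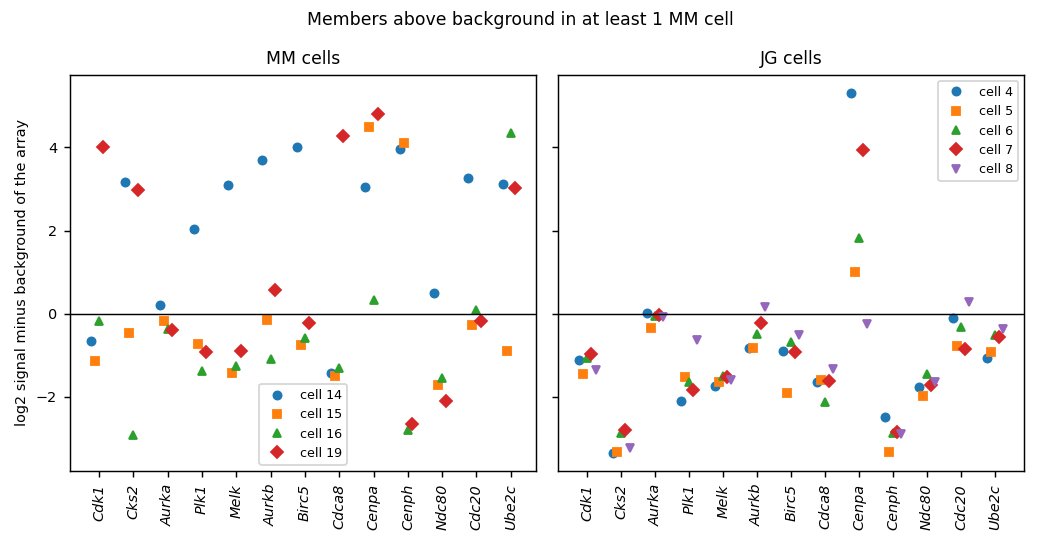
The 13 members above background in at least 1 MM cell, as log2 signal minus background of the array, in the 4 MM cells (left) and 5 JG cells (right); each marker is 1 cell and the line at 0 is background. In MM cells, 7 of the 13 genes have a single cell above the line, and in JG cells Cenpa is the only gene more than 1 unit above it.

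Between the groups of cells, the median member was close in MM and JG cells, and a few genes carried the difference. The median difference of group means, MM minus JG, was −0.06 over the 33 members, beside −0.19 over all genes and a receptor shift of −0.21. Beyond that shift, 8 members were at least 1 log2 unit higher in MM cells, where 10.8% of all genes were. They were Cks2 with 3.60 beyond the shift, Cenph with 3.33, Ube2c with 2.88, Cdk1 with 1.5, Cdca8 with 1.46, Birc5 with 1.39, Melk with 1.27 and Plk1 with 1.09. Aurkb, at 0.99, was just outside. Single cells carried 5 of these values. Without cell 19, Cdk1 had 0.37 and Cdca8 0.084, and without cell 14, Birc5 had 0.26, Melk 0.20 and Plk1 0.33. Cenph had 2.14 without cell 15, and Cks2 and Ube2c stayed at 2.23 or more without any 1 of the 4 MM cells. No member was 1 unit lower (0 of 33), where 0.732% of all genes were. No member had every MM cell above every JG cell, where 1.13% of genes did, and Aurka and Tpx2 had every MM cell below every JG cell, where 6.86% of genes did. Without cell 14 the members at least 1 unit higher fell to 5, with 9.41% of all genes. Without cell 16 there were 12, with 13.3% of all genes. Each group of cells counted as 1 sample, because no label names an animal, so these differences have no test.

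**Figure D3:**
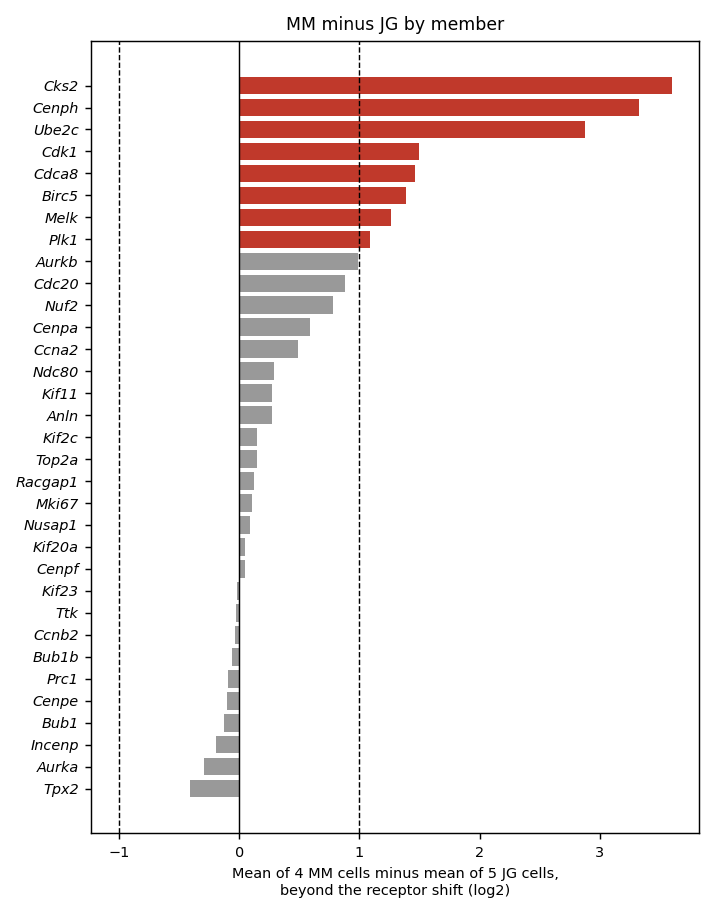
Mean log2 signal of the 4 MM cells minus that of the 5 JG cells for each of the 33 members, beyond the shift of the receptor probe sets, with dashed lines at 1 unit either way. The 8 red bars are members at least 1 unit higher in MM cells, from Plk1 at 1.09 to Cks2 at 3.60, and no bar reaches −1.

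Set beside the diluted cortex, which went through the same amplification, the median member differed by about as much as the receptors did in MM cells, and by less than they did in JG cells. The median member difference was 0.88 for MM minus diluted cortex, where the receptor shift was 0.81, and 0.65 for JG minus diluted cortex, where the shift was 1.02. Beyond the shift, Cenpa (2.29), Cenph (3.22) and Ube2c (2.2) were at least 1 unit higher in MM cells, where 0.787% of all genes were. Ccna2 (−1.03), Ccnb2 (−1.28) and Cks2 (−3.68) were at least 1 unit lower, where 36.9% of all genes were. In JG cells, Cenpa (1.71) was at least 1 unit higher than in diluted cortex, where 0.587% of genes were. Ccna2, Ccnb2, Cdk1, Cks2, Birc5 and Cdca8 were at least 1 unit lower, where 40.8% of genes were. The comparisons share the diluted cortex libraries.

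Cks2 was the member with the highest cortex signal, at 10.77, 11.02 and 10.79 in diluted cortex and 10.60, 10.66 and 10.73 in standard cortex. Cenpa ran the other way, with a median of 11.04 in MM cells and 9.56 in JG cells, against 7.39, 7.36 and 7.36 in diluted cortex libraries A, B and C and 6.42, 6.44 and 5.98 in standard cortex.

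The diluted and the standard cortex were compared with limma. The 2 kinds of library differ in dilution, in labelling method and in rounds of amplification, and these cannot be told apart here. Probe sets entered the test if the brighter group's mean was at least the overall probe set median, and 17 of the 33 members did, so the 16 others are described by their values only. Of the 17, 10 were higher in diluted cortex and 2 were lower at an adjusted p under 0.05, where 38% of the 19531 probe sets tested were higher and 36.7% were lower. Members enter by their brighter group, so the count over those that entered supports nothing about the list. Over all 33 members the median difference was 0.01, beside a receptor shift of −0.03.

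Cenpa was higher in diluted cortex by the most among the members tested, with 1.09 ± 0.133 (SE, limma adjusted p = 0.000123, n = 3 each). Ube2c was 6.67, 6.61 and 6.81 in diluted cortex, against 5.93, 5.75 and 6.05 in standard cortex, a difference of 0.79 (limma adjusted p = 0.000244). The groups did not overlap for either gene. Plk1 (0.69), Aurkb (0.61), Ccna2 (0.54), Cdca8 (0.54), Ccnb2 (0.53), Incenp (0.48), Birc5 (0.42) and Cdc20 (0.34) were also higher in diluted cortex. The chromosomal passenger genes among them, Aurkb, Birc5, Cdca8 and Incenp, had diluted means of 6.31 to 6.94 and standard means of 5.78 to 6.52, close to background in both. Kif23, a midzone motor, was 4.87, 4.90 and 4.99 in diluted cortex, against 5.82, 6.10 and 5.97 in standard cortex, and so was lower by 1.04 (limma adjusted p = 2.77e-05). Mki67 was 4.96, 4.97 and 5.17 in diluted cortex, against 5.76, 6.07 and 5.79 in standard cortex, and so was lower by 0.84 (limma adjusted p = 0.00026). Neither gene passed background in any of the 6 libraries. Cdk1, Cks2, Aurka, Nusap1 and Kif20a did not pass the test, with differences of 0.20, 0.19, 0.18, −0.42 and 0.10. Among members that did not enter, Cenph had 3.93 ± 0.12 in diluted and 5.35 ± 0.23 in standard cortex, and Top2a had 4.46 ± 0.09 and 5.55 ± 0.25 (SD, n = 3 each), all below background. With no filter the members called were 10 higher and 12 lower, where 21.6% and 28.7% of 35557 probe sets were. Cdc20 was no longer called when 1 of 3 libraries (diluted B, diluted C or standard B) was left out, and Mki67 did not enter without standard B. Nothing says that these libraries came from separate animals, so the p-values measure only the spread between them.

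**Figure D4:**
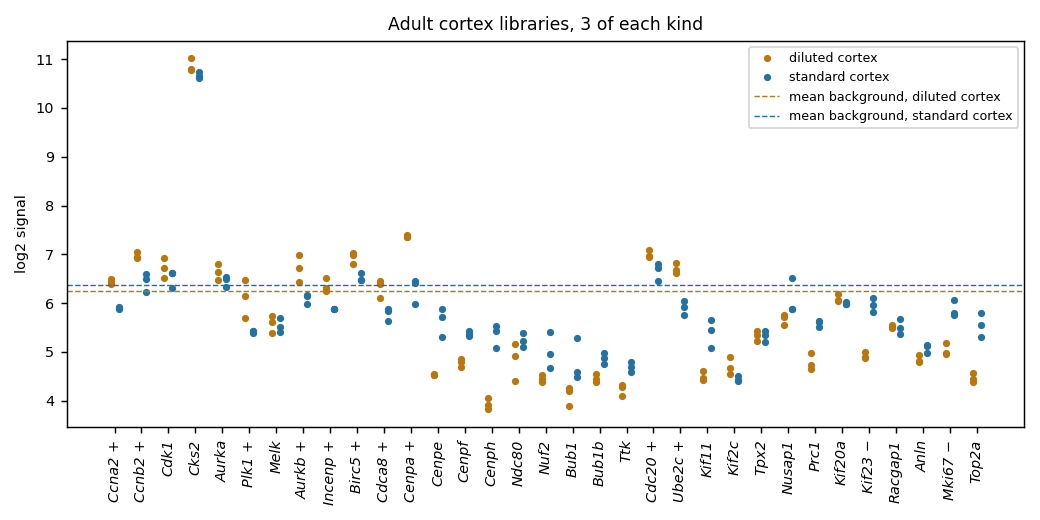
Log2 signal of the 33 members in the 3 diluted (left in each pair) and 3 standard cortex libraries, each point 1 library; + marks a member called higher and − one called lower in diluted cortex by limma, and dashed lines are the mean background of each kind. Cks2 stands near 11 in both, and the members called lie within about 1 unit of the background or below it.

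Other genes of the cell cycle were set beside the members in the same cells. Of 95 measured further mitosis genes, 29, 17, 10 and 29 passed background in MM cells 14, 15, 16 and 19, against 6, 4, 6, 6 and 6 in JG cells 4 to 8. More of these genes passed in the adult cortex, 46, 42 and 44 in diluted libraries A, B and C and 39, 40 and 44 in standard ones. There 48.3% to 50.5% and 43.7% to 48.2% of all genes passed. Those with the largest MM minus JG difference were Cenpw, a centromere protein, with 4.94, Tubb5, a tubulin of the spindle, with 4.26, and Hmgb2, a chromatin protein, with 3.79. Cenpw was 11.83, 11.42, 6.51 and 11.27 in the MM cells, against 4.47 to 5.95 in the JG cells. Of the 18 further spindle and motor genes measured, 5, 3, 2 and 3 passed background in MM cells 14, 15, 16 and 19. In JG cells 4 to 8, 0, 2, 0, 2 and 1 of them did. Of the 5 further cytokinesis genes measured, 0 passed background on any array.

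Genes of DNA replication act in S phase, before mitosis. Of 25 measured, 20, 8, 3 and 15 passed background in MM cells 14, 15, 16 and 19, and 1, 1, 2, 0 and 3 in the JG cells. Adult cortex had 20, 20 and 21 of them above background in diluted libraries A, B and C, and 10, 17 and 18 in standard ones, so high counts were not particular to MM cells. In these libraries 48.3% to 50.5% and 43.7% to 48.2% of all genes passed. Pcna, Rfc3 and Mcm4 were named for their large MM minus JG difference, so that contrast came with the choice. Pcna, the sliding clamp, was 12.78, 12.81, 7.44 and 12.64 in the MM cells, against 5.75, 6.39, 11.64, 5.94 and 5.40 in the JG cells. Rfc3, of the clamp loader, was 10.95, 12.13, 5.80 and 11.75 in the MM cells, against 5.86 to 6.23 in the JG cells. Mcm4, of the replicative helicase, was 10.60, 7.61, 6.44 and 10.64 in the MM cells, against 5.90 to 6.23 in the JG cells. Of the MM cells, 14 and 19 thus had the most replication genes and the most members above background. They also had the most genes of any kind, at 20.6% and 21.1% of all genes. The share of members in cell 19, at 18.2%, was below that of all genes at this background. Cell 15 held Pcna, Rfc3 and Mcm4 above background beside 2 members, and cell 16 held none of these 3 genes above background.

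Of 13 genes of entry into S phase, 8, 3, 2 and 5 passed in MM cells 14, 15, 16 and 19, and 1, 1, 0, 1 and 4 in JG cells. Diluted cortex had 8 of them above background in each library, and standard cortex had 6, 8 and 7. Cdk4, a G1 kinase, was 12.42, 12.23, 12.59 and 12.42 in the MM cells, against 6.48 to 7.27 in the JG cells, and so was high in all MM cells, whatever the count of members. Of 12 CDK inhibitors and genes of quiescence, 4, 4, 5 and 4 passed in the MM cells and 5, 3, 7, 6 and 5 in the JG cells. Each diluted cortex library had 11 of them above background, and standard cortex had 9, 11 and 10. Cdkn1c, an inhibitor active in embryonic tissue, was 10.48, 11.80, 8.05 and 10.74 in the MM cells, against 8.12 to 8.54 in the JG cells. Cdk4 and Cdkn1c were named for their large MM minus JG difference, so that contrast came with the choice and does not stand for their lists. The median MM minus JG difference was 0.43 over the entry genes and −0.23 over the inhibitors, beside a receptor shift of −0.21.

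**Figure D5:**
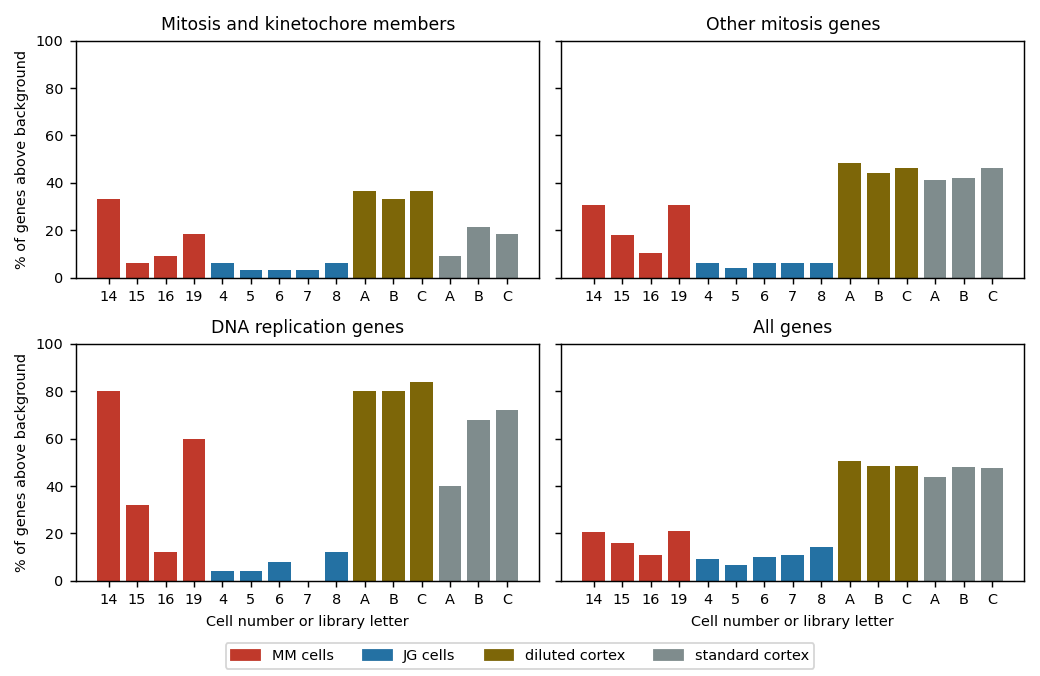
Share of genes above background on each array for the 33 members, 95 other mitosis genes, 25 DNA replication genes and all 19938 genes, with bars coloured by group. In MM cells 14 and 19, 80% and 60% of the replication genes pass, against 33.3% and 18.2% of the members. The shares of all genes in these cells are 20.6% and 21.1%. Diluted cortex has 80% to 84% of the replication genes passing.

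Markers of other cell types also differed between the MM cells. In cell 14, which had the most members above background, Emcn, an endothelial sialomucin, was 11.77, against 5.32 to 6.07 in cells 15, 16 and 19 and 5.78 to 6.35 across the JG cells. Of 7 endothelial markers, 2 (Emcn and Egfl7) passed background in cell 14 and 1 (Egfl7) in each other MM cell, with a summed linear signal of 4017 in cell 14, against 910 to 1060 in cells 15, 16 and 19 and 612 to 746 across the JG cells. The defining markers Pecam1 (5.67), Cdh5 (6.01) and Kdr (5.99) were below background in cell 14. Foxd1, a marker of stromal progenitors, was 9.03 in cell 14 and 11.33 in cell 19, against 6.35 to 7.11 in the remaining 7 cells. Stromal progenitor markers passed background for 2, 1, 0 and 1 of 5 genes in MM cells 14, 15, 16 and 19 and 0 of 5 in JG cells, and their summed linear signal was 848, 2350, 452 and 2927 in these MM cells, against 410 to 494 across the JG cells. Contractile smooth muscle markers passed for 0, 1, 0 and 2 of 6 genes in the MM cells, Des in cell 15 and Des and Myl9 in cell 19, with summed linear signals of 615, 3301, 613 and 6661, against 570 to 12256 across the JG cells. Ureteric bud markers passed for 3, 2, 3 and 3 of 9 genes in MM cells 14, 15, 16 and 19, and for 1, 1, 2, 2 and 4 in JG cells 4 to 8. Hoxb7 and Krt8 passed in each MM cell, Krt18 in cell 14, Cdh1 in cell 16 and Gata3 in cell 19. Hoxb7 also passed in every JG cell. Cell 16, with Six2 at 10.13 and with Cdh1 and Krt8 above background, had 3 members above background, 2 of them by under 0.5 units. The part of cell identity in the member counts was not tested.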

How the data were processed

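The authors deposited log2 signals per probe set for 15 arrays (2.22 to 13.98), made with Affymetrix Expression Console per the submitters' processing notes. How probes were summarised and arrays scaled, and the tool's version, were not given in the sources used here. Values were used as deposited. No 2 arrays correlated above 0.995 over probe sets, and 0 columns were left unused. Of 35557 probe sets, 21789 carry 1 gene symbol, 1621 several, and 12147 are unlisted in the platform annotation and stayed unnamed. That annotation names no genome build, so gene coordinates are given only for RefSeq promoter windows. An array has no count depth, and the number of arrays limits the precision. Background was the 99th percentile of 1205 receptor probe sets per array. Cells were compared by means of MM 4, JG 5 and diluted cortex 3 arrays, with no test. Diluted and standard cortex (3 each) were tested with limma 3.58.1 in R 4.3.3 over all probe sets, Benjamini-Hochberg adjusted, after tests on simulated data. Other values came from Python 3.11.15 with numpy 2.4.6 and pandas 2.3.3.

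Members and gene lists were chosen with earlier results of these data known. All members could be named; members above background in an MM cell are given array by array, the others by range. From other lists up to 3 genes with the largest MM minus JG difference were named, besides Crym and Six2. Emcn and Foxd1 follow that rule, and Pecam1, Cdh5 and Kdr are named as defining markers. Ureteric bud markers are named where they passed background in an MM cell.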

Additional observations from a re-analysis of the deposited data

Results flagged for a closer look

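Single cells stood far from the rest of their group for 6 of 74 sets of values looked at. The rule was Dixon's ratio, the gap to the nearest value over the range of the group. It flags about 1 in 20 sets (3.7) if values are independent and normally distributed. These sets come from the same cells, so 3.7 is only a rough guide. Cell 14 was far above the other MM cells for Plk1 (9.18, the others 6.17 to 6.66), Melk (10.25, the others 5.96 to 6.30) and Birc5 (11.16, the others 6.64 to 6.99). Cell 19 was far above the other MM cells for Cdca8, at 11.39 (the others 5.72 to 6.26). In the JG group, cell 5 was below the others for Birc5, at 6.02 (the others 6.78 to 7.06), and cell 6 was above the others for Ndc80, at 6.30 (the others 5.91 to 5.98), with every JG value of both genes below background.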

How the results depend on the processing

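For MM minus JG, the median member difference (−0.064) changed sign with quantile normalization (0.075) and with arrays centred on receptors (0.15). It also did so without JG cell 4 (0.019) or 5 (0.017), and lay between −0.13 and 0.019 when 1 cell was left out. Over only the members above background on some MM or JG array it was 1.05. All of those members passed in an MM cell, so they were picked by their MM signal and the value supports nothing. For MM minus diluted cortex (0.88) the median member difference was 0.30 with quantile normalization, 0.039 centred on receptors and 0.63 with group medians. It was 0.63 to 0.93 with 1 array left out, lowest without cell 14. For JG minus diluted cortex (0.65) it was 0.12 with quantile normalization, −0.41 centred on receptors, 0.73 with group medians and 0.63 to 0.76 with 1 array left out. With only members above background it was 0.082, over members that all passed in a diluted library and so were picked by that signal. The cause was not tested. With the 95th percentile as background, 6, 7 and 10 members passed in cells 15, 16 and 19 in place of 2, 3 and 6, and with the highest receptor 1 passed in cell 16. The 8 members at least 1 unit higher in MM than JG became 4 with group medians, 3 at 2 units, and 5 to 12 with 1 cell left out (alternatives chosen after seeing the data). The 12 cortex calls became 22 with no filter, where 33 rather than 17 members were tested, and 10 to 14 with 1 library left out. With the library letter as a replicate block, 12 members were called, 10 higher and 2 lower; same-letter deviations correlated at 0.09, 0.07 and 0.02, and diluted library C correlated best with standard library B, so the letters are not taken to pair libraries. Of the values of single members, all 202 kept their direction, and 3 lost their limma call (Cdc20 without diluted B, diluted C or standard B). For MM minus JG, Cdk1 and Cdca8 without cell 19 (0.37 and 0.084) and Birc5, Melk and Plk1 without cell 14 (0.26, 0.20 and 0.33) lay under 1 unit. Mki67 did not enter with quantile normalization or without standard B. Signal near background limits every statement on the 20 members that passed in no MM cell.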
